A study of Danio rerio with 12 samples.

Results

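The respiratory chain genes of the zebrafish, *Danio rerio*, were taken by name: every feature whose name begins with nduf, sdha, sdhb, sdhc, sdhd, uqcr, cox4, cox5, cox6, cox7, cox8, atp5, mt-nd, mt-co, mt-cyb or mt-atp. The rule found 76 of 32312 features. Of these, 63 lie on nuclear chromosomes and 13 on the mitochondrial genome. The nuclear genes comprise 26 named for complex I, 5 for complex II, 6 for complex III, 10 for complex IV and 13 for complex V, 2 assembly factors of complex I (ndufaf1 and ndufaf2), and cox4nb, which is named for lying beside a cox4 gene and is not a subunit. The mitochondrial genes comprise 7 of complex I, 1 of complex III, 3 of complex IV and 2 of complex V.

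The respiratory chain sits in the inner mitochondrial membrane. Complex I takes electrons from NADH and complex II from succinate, complex III passes them to cytochrome c, and complex IV passes them on to oxygen. Complexes I, III and IV pump protons, and complex V, the ATP synthase, lets them back to make ATP. Complex II is encoded in the nucleus alone, whereas the other complexes join nuclear and mitochondrial subunits. Mitochondrial genes are transcribed from both strands as long precursors that are then cut into single RNAs, so the nuclear and the mitochondrial subunits of a complex reach it by separate routes of RNA synthesis. Neurons and heart muscle are known for a high demand for this pathway.

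Cells were sorted by fluorescence from dissociated whole fish, and each GFP-positive library was paired with a GFP-negative library of the same line and age. At 24 h after fertilization there were GFP-positive and GFP-negative cells of ETvmat2:GFP, an enhancer trap that labels the posterior tuberculum and locus coeruleus, and of Tg(otpb.A:egfp)zc48, which labels ventral diencephalic dopaminergic cells along with a number of preoptic ones. At 36 and 48 h the fish carried a th:Gal4VP16 driver and a UAS:EGFP responder, and at 72 and 96 h a th:GFP BAC, both built on the tyrosine hydroxylase gene. The labels state that the first 2 lines mark other populations at later ages, and that the th lines label catecholaminergic cells poorly at early ages. The 4 libraries at 24 h were NanoCAGE libraries of total RNA, which read capped 5′ ends, and the 8 later ones were amplified mRNA libraries. The 12 libraries are 1 per group, so no comparison below has replicates or a test: each compares these libraries. Intervals (95%) cover counting error only, save those of medians. The latter come from the ranked ratios of the genes, treat the genes as independent, and say nothing of variation between replicate libraries. Those for counting error are exact, except for mitochondrial over nuclear reads, where they are normal approximations.

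Exon reads per library ranged from 495373 to 1367216 at 24 h, from 21326333 to 27682819 in the th:Gal4 libraries, and from 52869 to 79653 in the th:GFP libraries. Reads of 6 catecholamine genes (th, th2, ddc, dbh, slc18a2 and slc6a3) summed to 24 (vmat2), 6 (otpb), 355 (36 h), 616 (48 h), 39 (72 h) and 26 (96 h) in GFP-positive cells, against 0, 0, 57, 144, 0 and 0 in GFP-negative cells. At 24 h the th2, ddc, dbh and slc6a3 genes had no read in either line, so the labelled cell type rested on few reads. Other cell types stood out more. Hatching gland genes gave 586 reads in GFP-positive and 45 in GFP-negative vmat2 cells, 840 and 146 in the otpb pair, 263868 and 473 at 36 h, and 100273 and 3985 at 48 h. Heart genes gave 2080 GFP-positive against 31 GFP-negative reads in the vmat2 pair, 31570 against 101 at 36 h and 5257 against 415 at 48 h. Leukocyte genes gave 1260 against 3 in the vmat2 pair. Epidermal genes gave 793845 GFP-positive against 63831 GFP-negative reads at 36 h and 1393982 against 103220 at 48 h, while red cell genes gave 40243 against 364451 and 84926 against 1475417 at the same ages. Neuronal genes gave 391 GFP-positive against 539 GFP-negative reads in the vmat2 pair and 313 against 425 in the otpb pair. They gave 23729 against 48574 at 36 h, 35225 against 64851 at 48 h, 177 against 104 at 72 h and 215 against 207 at 96 h. As shares of exon reads they held 0.063% in GFP-positive and 0.031% in GFP-negative otpb cells. In the same order their shares were 0.043% and 0.046% in vmat2, and 0.305% and 0.325% at 96 h. The part of these cell types in the results below was not tested, and in sorted bulk RNA fewer cells of a type and less RNA per cell cannot be told apart.

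After TMM scaling, described below, the nuclear respiratory chain genes stood highest over the unlabelled cells at 36 and 48 h, and the mitochondrial genes did not follow them evenly. On library size alone the nuclear sum was 0.47 at 36 h and 0.81 at 48 h, against 0.57 in the otpb pair. At 36 h the summed nuclear genes were 1.21 (log2) higher in GFP-positive cells and the mitochondrial genes 0.46, although the mitochondrial value turns to -0.29 when scaled on library size alone. At 48 h the nuclear sum was 0.67 and the mitochondrial sum 0.60 higher. At 72 h the summed mitochondrial genes were higher in GFP-positive cells while the summed nuclear genes were not. The nuclear median at 72 h, -0.26, lay near the median over all features, -0.35. At 96 h neither sum differed beyond counting error with this scaling. At 24 h the vmat2 and otpb lines went opposite ways for both classes, except that the vmat2 nuclear sum turns to 0.25 on library size alone.

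**Figure D1:**
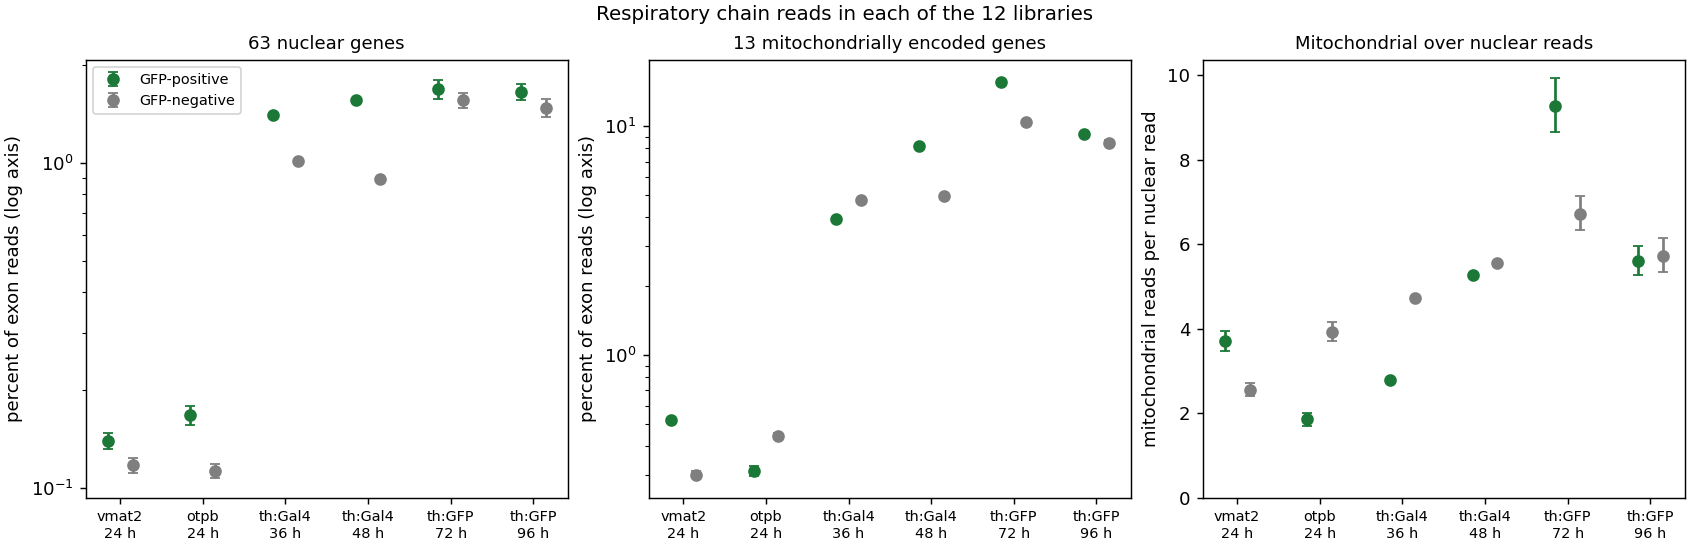
Share of exon reads (percent, log axis) held by the 63 nuclear genes and by the 13 mitochondrially encoded genes, and mitochondrial reads per nuclear read (linear axis), in each of the 12 libraries. Green points are GFP-positive and grey points GFP-negative libraries. Bars are 95% intervals for counting error, exact for the shares and normal approximations for mitochondrial reads per nuclear read. The nuclear share lies between 0.113% and 0.168% in the NanoCAGE libraries and between 0.891% and 1.68% in the mRNA libraries, and mitochondrial reads outnumber nuclear reads in every library.

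The nuclear genes held 0.140%, 0.168%, 1.40%, 1.56%, 1.68% and 1.65% of exon reads in GFP-positive cells of vmat2, otpb, 36 h, 48 h, 72 h and 96 h. In GFP-negative cells they held 0.118%, 0.113%, 1.01%, 0.891%, 1.56% and 1.48%. The GFP-positive share was thus the larger in all 6 pairs when set against library size. The mitochondrial genes held 0.518%, 0.310%, 3.93%, 8.22%, 15.6% and 9.26% of exon reads in GFP-positive cells. In GFP-negative cells they held 0.300%, 0.444%, 4.78%, 4.94%, 10.4% and 8.46%. Here the otpb and 36 h GFP-positive libraries held the smaller share and the other 4 the larger one. All log2 ratios below are of GFP-positive over GFP-negative cells after TMM scaling, which sets aside features that take many reads in 1 library only, and scaling on library size alone shifts the ratios of single features by a median of 0.59, 0.41, -0.74, 0.13, 0.21 and 0.09 in the same order of pairs.

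Mitochondrial reads per nuclear read need no scaling between libraries. They came to 3.70, 1.85, 2.80, 5.27, 9.28 and 5.60 in GFP-positive cells of vmat2, otpb, 36 h, 48 h, 72 h and 96 h, and to 2.55, 3.93, 4.72, 5.54, 6.72 and 5.73 in GFP-negative cells. The balance was tilted to the mitochondrial genes in GFP-positive cells of vmat2 by 0.54 (log2, 0.41 to 0.67) and at 72 h by 0.47 (0.33 to 0.60). It was tilted to the nuclear genes in GFP-positive cells of otpb, by -1.08 (-1.23 to -0.94), and at 36 h, by -0.75. At 48 h the difference was -0.07 (-0.08 to -0.06), and at 96 h it was -0.03 with an interval that spans 0 (-0.17 to 0.10). The 24 h values also rest on how NanoCAGE reads each kind of RNA, which was not tested.

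Genes were counted from 5 CPM (reads scaled to the total of exon reads) and 20 reads in whichever library of the pair had more. At 36 h, 56 of the 63 nuclear genes passed, and 35 of them were at least 2-fold higher in GFP-positive cells, against 13.9% of the 9935 features that passed. None was at least 2-fold lower, against 10.4% of all features. A ratio above 0 was found for 47, against 45.5% of all features. On library size alone the counts 2-fold higher and lower were 7 and 7. The median was then 0.38 for the nuclear genes and -0.82 over all features, and shares over all features are not given with that scaling. After TMM scaling the median log2 ratio was 1.12 for the nuclear genes and -0.09 over all features. The interval lay above 0 for 43 of the 56 genes and below 0 for 8. Such intervals narrow as reads rise, and the share of all features with an interval off 0 is not given for any pair. All 63 are accounted for by these 56 and by 7 genes under the minimum or without a read, NDUFA4L2 (1 of 2) among them, which had 0 reads in all 12 libraries.

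Complex IV, cytochrome c oxidase, showed the highest sum at 36 h, 1.64 (1.62 to 1.65), from 98961 reads in GFP-positive and 49917 in GFP-negative cells. All 9 of its nuclear genes that passed were at least 2-fold higher, against 13.9% of all features. Its small subunit gene cox7c had 20486 reads in GFP-positive cells and 6995 in GFP-negative cells, 2.20 higher, the highest ratio of any nuclear gene of the chain. The subunit gene cox8a had 24674 reads in GFP-positive and 10933 in GFP-negative cells, 1.82 higher, and held the most reads of the complex in GFP-positive cells. The regulatory subunit gene cox4i1 had 20513 GFP-positive and 13098 GFP-negative reads, 1.29 higher.

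In complex V the ratios differed between genes. The gene atp5ia, for subunit e of the ATP synthase, had 5234 reads in GFP-positive and 1946 in GFP-negative cells, 2.07 higher. The gene atp5g, for subunit c of the proton-driven ring, had 23786 GFP-positive and 13843 GFP-negative reads, 1.43 higher. By contrast atp5a1, for the catalytic head's alpha subunit, had 5036 reads in GFP-positive and 11708 in GFP-negative cells, a ratio of -0.57 (-0.62 to -0.52), while atp5d, for the delta subunit of the central stalk, had 6013 and 4280 reads, 1.14 higher. Of the 11 complex V genes that passed, 8 were at least 2-fold higher and 10 had a ratio above 0, against 13.9% and 45.5% of all features. In exon length atp5ia, atp5g, atp5a1 and atp5d have 557, 1040, 1954 and 769 bases.

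Genes of complexes I, II and III also lay on both sides of 0. Among accessory subunits of complex I, NDUFB1 had 2613 reads in GFP-positive and 967 in GFP-negative cells, 2.08 higher, and ndufb8 had 5750 and 3958 reads, 1.19 higher, whereas ndufa10 had 2044 and 3050 reads, a ratio of 0.07 with an interval that spans 0 (-0.01 to 0.15). Among its core subunits, which carry the redox centres or lie beside them, the gene ndufv1 had 1121 reads in GFP-positive and 2784 in GFP-negative cells, a ratio of -0.66, but ndufs3 had 3743 GFP-positive and 3365 GFP-negative reads, 0.80 higher. In complex II the membrane anchor gene sdhc had 4236 reads in GFP-positive and 2649 in GFP-negative cells, 1.32 higher. The catalytic gene sdha, for the flavoprotein, had 417 GFP-positive and 1014 GFP-negative reads, a ratio of -0.63, and sdhb, for the iron-sulphur subunit, had 328 GFP-positive and 544 GFP-negative reads, a ratio of -0.08 with an interval that spans 0 (-0.28 to 0.12). In complex III the small subunit gene uqcrq had 10041 reads in GFP-positive and 3840 in GFP-negative cells, 2.03 higher, whereas the core protein genes uqcrc1 and uqcrc2 had ratios of -0.45 and -0.55. These genes also differ in exon length. NDUFB1, ndufb8, ndufa10, ndufv1 and ndufs3 have 290, 646, 1309, 2080 and 910 bases. For sdhc, sdha and sdhb the lengths are 1032, 2872 and 1177, and for uqcrq, uqcrc1 and uqcrc2 401, 2394 and 1654. Subunit role and exon length were not separated.

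Over the 56 nuclear genes the log2 ratio at 36 h fell with exon length (Spearman's rho -0.74), and over the 13 mitochondrial genes rho was -0.66, against -0.10 over all 9935 features. These are descriptions across genes of 1 pair of libraries, and the genes share both. Of 30 nuclear genes with exons under 1000 bases in all, 26 were at least 2-fold higher in GFP-positive cells, with a median of 1.36. Of 26 longer ones, 9 were, with a median of 0.23. All features that passed, the chain included, showed part of this: the 933 under 1000 bases had a median of 0.81 with 43.5% at least 2-fold higher, and the 9002 longer ones a median of -0.14 with 10.9%. Set against features in the same of 10 equal bins of exon length, a comparison chosen after the pattern had been seen, the nuclear median at 36 h was 0.54. By that measure 15 of the 56 genes were at least 2-fold higher, and the share over all features by the same measure is not given.

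**Figure D2:**
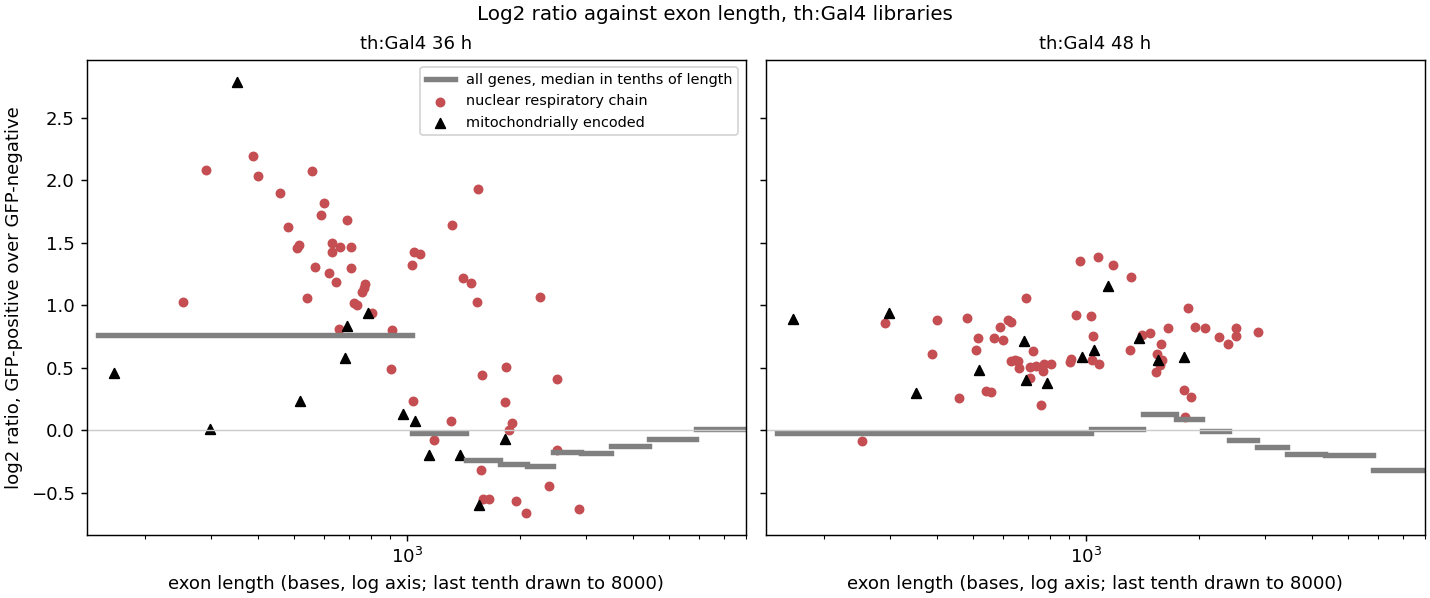
Log2 ratio of GFP-positive over GFP-negative cells against exon length (bases, log axis) at 36 h and 48 h; red dots are nuclear and black triangles mitochondrially encoded respiratory chain genes, and grey bars are the medians of all features that passed, in 10 equally filled bins of exon length. At 36 h the ratios of the chain fall with length (rho -0.74 over 56 nuclear genes), and at 48 h they do not (rho 0.13 over 59).

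Among nuclear chain genes the length pattern lay mainly with 1 library. Nuclear genes of the chain with exons under 1000 bases took 63.2% of the nuclear chain reads in the 36 h GFP-positive library. In the other 7 mRNA libraries their part lay between 48.7% and 53.5%. Features outside the chain under 1000 bases took 38.2% of the reads in GFP-positive and 25.5% in GFP-negative cells at 36 h, and 21.6% and 36.8% at 48 h. Between the GFP-positive libraries of 48 h and 36 h, the log2 ratio of the nuclear genes went up with exon length (rho 0.72 over 59 genes). Between the GFP-negative libraries of the same ages rho was -0.11 over 58 genes. Over all features the same 2 comparisons gave rho of -0.13 for GFP-positive (10052 features) and -0.27 for GFP-negative libraries (9754 features). Whether RNA quality or amplification differed between the 36 h libraries was not tested.

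At 48 h the chain was higher in GFP-positive cells across complexes and lengths alike. Of the 59 nuclear genes that passed, 58 had a ratio above 0, against 46.3% of 10030 features. The interval lay above 0 for 57 and below 0 for none, again without a share over all features. The size was moderate: 5 genes were at least 2-fold higher, against 17.6% of all features, and 0 were at least 2-fold lower, against 6.53%. The median was 0.64 for the nuclear genes and -0.08 over all features. Within bins of exon length the median was 0.65.

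By complex, the nuclear sums at 48 h were 0.56 higher for complex I, 0.92 for complex II, 0.78 for complex III, 0.65 for complex IV and 0.71 for complex V. The assembly factors ndufaf1 and ndufaf2 together stood 0.18 higher. The genes lowest at 36 h were no longer low. The gene ndufv1 had 5699 reads in GFP-positive and 3248 in GFP-negative cells, 0.82 higher, sdha had 2189 and 1275, 0.79 higher, and atp5a1 had 21454 and 12204, 0.82 higher. The highest ratio belonged to ndufa4, named for complex I and since assigned to complex IV, with 839 reads in GFP-positive and 322 in GFP-negative cells, 1.39 higher. The gene sdhb had 2365 GFP-positive and 949 GFP-negative reads, 1.33 higher, and ndufv3, a complex I accessory subunit, had 754 GFP-positive and 324 GFP-negative, 1.22 higher. At the low end were the complex I genes ndufa6 (3105 GFP-positive and 2612 GFP-negative reads, 0.26 higher) and ndufb9 (5371 GFP-positive and 4705 GFP-negative, 0.20 higher) and the assembly factor ndufaf2 (822 GFP-positive and 769 GFP-negative, 0.11 higher). The most-read genes of complexes I to V, ndufb8, sdhc, uqcrh, cox4i1 and atp5o, were 0.56, 0.92, 0.74, 0.51 and 0.76 higher. Only COX7A2 (1 of 2) had a ratio below 0, with 879 reads in GFP-positive and 939 in GFP-negative cells (-0.08).

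Sums of the mitochondrial genes at 36 and 48 h hide a wide spread at 36 h and a narrow one at 48 h. At 36 h the gene mt-co1, for the catalytic subunit of complex IV, had 85717 reads in GFP-positive and 203552 in GFP-negative cells, a ratio of -0.60. Its neighbours in the same complex went the other way: mt-co2 had 232021 GFP-positive and 203585 GFP-negative reads, 0.84 higher, and mt-co3 218490 GFP-positive and 178732 GFP-negative, 0.94 higher. The complex I gene mt-nd3 had 42925 reads in GFP-positive and 9719 in GFP-negative cells, 2.79 higher, the highest of the 76. Its deposited span overlaps another mitochondrial feature, as those of mt-co3 and mt-nd2 do, and how the authors counted shared reads is not stated in the sources used here. The remaining genes lay between -0.20 (mt-cyb and mt-nd4) and 0.58 (mt-atp6), and the intervals lay above 0 for 8 genes and below 0 for 4. The median of the 13 genes was 0.13, or -0.18 within bins of exon length. Scaling on library size alone lowers the ratios by the shift given above. Only mt-co2, mt-co3 and mt-nd3 then stay above 0, at 0.09, 0.19 and 2.05.

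At 48 h all 13 mitochondrial genes were higher in GFP-positive cells, against 46.3% of all features with a ratio above 0, and all intervals lay above 0. The lowest was mt-nd3, with 24239 reads in GFP-positive and 19833 in GFP-negative cells, 0.30 higher. The highest was mt-cyb, the cytochrome b of complex III, with 212516 GFP-positive and 96419 GFP-negative reads, 1.15 higher. The complex IV genes mt-co1, mt-co2 and mt-co3 were 0.56, 0.40 and 0.37 higher, and the ATP synthase genes mt-atp6 and mt-atp8 0.72 and 0.89. The complex I genes mt-nd1, mt-nd2, mt-nd4, mt-nd4l, mt-nd5 and mt-nd6 were 0.58, 0.64, 0.74, 0.94, 0.58 and 0.48 higher. The standard deviation of the log2 ratio over the 13 genes was 0.84 at 36 h and 0.24 at 48 h.

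Within complexes, the summed mitochondrial reads had the lower ratio at 36 h in each of the 4 complexes that have both. Single genes could differ from the sums, as mt-nd3 of complex I stood at 2.79. In complex IV there were 5.42 mitochondrial reads per nuclear read in GFP-positive and 11.7 in GFP-negative cells, a difference of -1.12 (log2), and in complex III 1.12 and 2.86, a difference of -1.35. Complexes I and V differed by -0.59 and -0.53. At 48 h the differences were 0.06 in complex I, 0.38 in complex III, -0.20 in complex IV and 0.02 in complex V. At that age the balance in complexes I and V was thus close in both libraries.

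**Figure D3:**
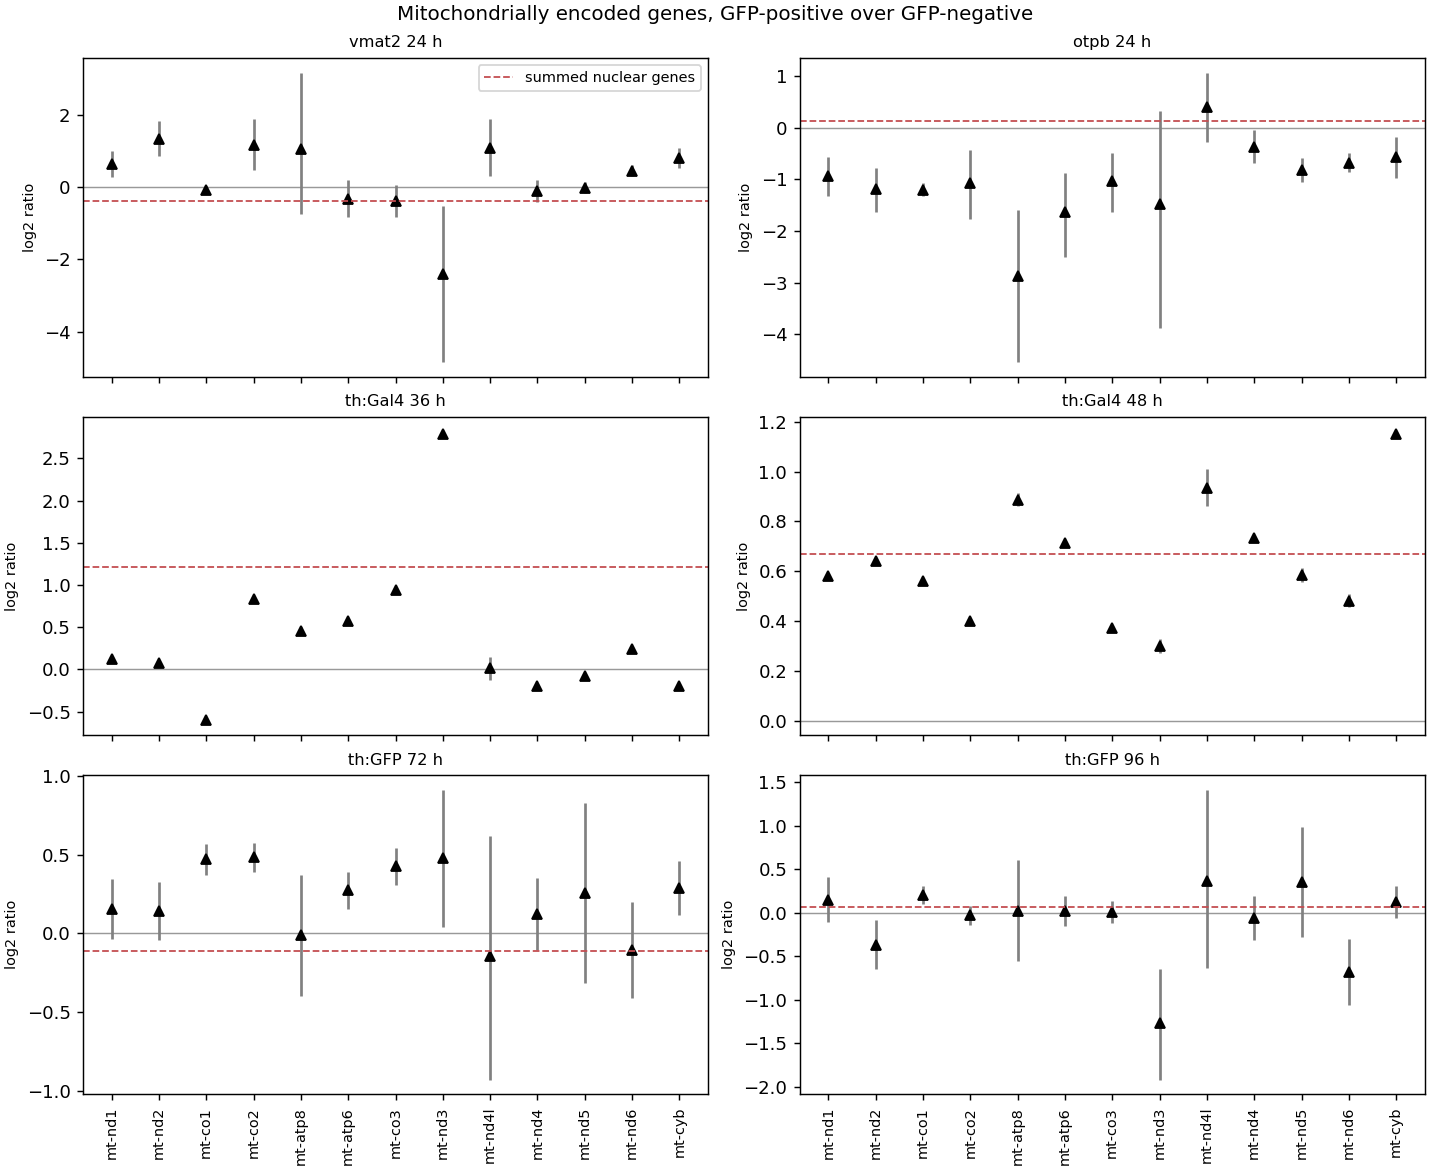
Log2 ratio of GFP-positive over GFP-negative cells for the 13 mitochondrially encoded genes in each of the 6 pairs, in their order along the mitochondrial genome; triangles are ratios without a prior count, grey bars exact 95% intervals for counting error, and the dashed line the summed nuclear genes. The genes range from -0.60 to 2.79 at 36 h and from 0.30 to 1.15 at 48 h, and in the otpb pair 12 of 13 lie below 0.

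Both ages of the th:Gal4 line also allowed each kind of cell to be followed in time, scaled on library size. In GFP-positive cells the mitochondrial genes held 8.22% of reads at 48 h against 3.93% at 36 h, 1.07 higher on the log2 scale, and the nuclear genes 1.56% against 1.40%, 0.15 higher. In GFP-negative cells the mitochondrial genes were 0.05 higher at 48 h than at 36 h and the nuclear genes -0.19. Mitochondrial reads per nuclear read were therefore 0.92 higher at 48 h in GFP-positive cells and 0.23 higher in GFP-negative cells. Most mitochondrial genes followed in GFP-positive cells, with mt-cyb 2.42 and mt-co1 1.93 higher at 48 h, but mt-nd3 stood at -0.96. Between 72 and 96 h of the th:GFP line, GFP-positive cells held fewer mitochondrial reads at 96 h (-0.76, -0.80 to -0.71), and GFP-negative cells did as well (-0.30, -0.35 to -0.25), with nuclear sums of -0.03 and -0.07 and intervals that span 0.

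Per length, mitochondrial RNA exceeded nuclear RNA in all 8 mRNA libraries. The median level of the mitochondrial genes was 2393 CPM per kilobase in GFP-positive and 2669 in GFP-negative cells at 36 h, and 6902 and 3053 at 48 h. The median nuclear gene had 180 CPM per kilobase in GFP-positive and 148 in GFP-negative cells at 36 h, and 217 and 135 at 48 h. Among mitochondrial genes mt-co2, for the subunit that takes electrons from cytochrome c, led in 7 of these libraries, and at 48 h in GFP-positive cells mt-atp6 led with 19124 CPM per kilobase. Among nuclear genes the lead was held by cox7c, cox8a or cox4i1, all of complex IV. At 36 h cox7c reached 2324 CPM per kilobase in GFP-positive cells, and cox4i1 led with 866 in GFP-negative cells.

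In the shallow th:GFP pairs fewer genes could be counted. At 72 h, 21 nuclear genes passed, of which 1 was at least 2-fold higher, against 5% of 420 features, and 1 at least 2-fold lower, against 22.4%. A ratio above 0 was found for 6 of the 21, against 28.1% of all features. The median was -0.26 for the nuclear genes and -0.35 over all features. The summed nuclear genes had 890 reads in GFP-positive and 1239 in GFP-negative cells, a ratio of -0.11 (-0.24 to 0.01), or 0.11 on library size alone. The mitochondrial genes had 8259 GFP-positive and 8323 GFP-negative reads, 0.35 higher (0.31 to 0.40), and 10 of 13 had a ratio above 0, against 28.1% of all features. There were 1776 reads of mt-co1 in GFP-positive and 1652 in GFP-negative cells (0.47 higher), 1991 and 1833 of mt-co2 (0.48 higher), and 95 and 88 of mt-nd3 (0.47 higher). Among nuclear genes uqcrh, the hinge protein of complex III, had 25 GFP-positive and 14 GFP-negative reads, 1.08 higher, and atp5h, for subunit d of the ATP synthase, 7 GFP-positive and 30 GFP-negative, a ratio of -1.52 (without the prior count, -3.17 to -0.52). The other nuclear genes at the ends were atp5o, cox8a and cox7c (0.54, 0.37 and 0.26) and cox4i1, ndufs3 and uqcrb (-0.67, -0.68 and -0.73), each from 75 reads or fewer per library. The most-read genes of complexes I, II, IV and V, ndufb9, sdhc, cox6a1 and atp5g, had ratios of -0.59, 0.66, -0.14 and -0.14. Muscle genes gave 38 reads in GFP-positive against 233 in GFP-negative cells in this pair, and epidermal genes 62 against 519. Red cell genes went the other way, with 326 against 121.

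At 96 h, 20 nuclear genes passed, 11 of them with a ratio above 0, against 44.3% of 458 features, 0 at least 2-fold higher, against 3.71%, and 1 at least 2-fold lower, against 6.99%. The nuclear sum was 1165 reads in GFP-positive and 940 in GFP-negative cells, 0.06 (-0.06 to 0.19), and the mitochondrial sum 6526 and 5384, 0.03 (-0.02 to 0.08). Both sums were within counting error of no difference after TMM scaling, and came to 0.16 and 0.13 on library size alone and to 0.31 and 0.28 with DESeq2 size factors. The gene uqcrh had 13 reads in GFP-positive and 25 in GFP-negative cells, a ratio of -1.07, on the other side from 72 h. The gene uqcrb, for another small complex III subunit, had 30 GFP-positive and 13 GFP-negative reads, 0.87 higher, against 11 GFP-positive and 25 GFP-negative reads and a ratio of -0.73 at 72 h. Among the next highest were uqcrc1 (21 GFP-positive and 10 GFP-negative reads, 0.72), atp5a1 (84 GFP-positive and 44 GFP-negative, 0.67) and atp5f1 (40 GFP-positive and 23 GFP-negative, 0.52), and among the next lowest atp5h, atp5j and cox6a1 (-0.58, -0.49 and -0.34). The most-read genes of complexes I to V, ndufb8, sdhc, uqcrfs1, cox8a and atp5g, lay between -0.14 and 0.46. Of the mitochondrial genes, mt-nd3 had 33 GFP-positive and 67 GFP-negative reads, a ratio of -1.21, mt-nd6 106 GFP-positive and 143 GFP-negative, a ratio of -0.67, and mt-co1 1798 GFP-positive and 1314 GFP-negative, 0.21 higher.

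The NanoCAGE libraries at 24 h counted 5′ ends, so their levels were not compared between genes per length. Whether the assay reads mitochondrial RNAs as it reads nuclear ones was not tested, which limits the balance between the genomes at 24 h. In the vmat2 pair the nuclear genes had 1283 reads in GFP-positive and 1383 in GFP-negative cells, a ratio of -0.39 (-0.50 to -0.27). Of 22 that passed, 1 was at least 2-fold higher, against 24.8% of 6338 features, and 4 at least 2-fold lower, against 15.6%. On library size alone these counts were 6 and 2. The median was then 0.44 for the nuclear genes and 0.70 over all features, and shares over all features are not given with that scaling. After TMM scaling a ratio above 0 was found for 10, against 53.5% of all features. The median with TMM scaling was -0.18 for the nuclear genes and 0.10 over all features. The mitochondrial genes had 4753 GFP-positive and 3526 GFP-negative reads, 0.15 higher (0.09 to 0.22), with the interval above 0 for 6 of the 13 and below 0 for 1. The nuclear ratio turned to 0.25 when the libraries were scaled on size alone, while the balance between the genomes does not depend on scaling. The gene atp5ia had 25 reads in GFP-positive and 5 in GFP-negative cells, 1.72 higher. Its paired gene atp5ib went the other way, with 3 and 16 reads, so atp5ia made up 89.3% and 23.8% of the reads of both. The complex I gene ndufs5 had 8 GFP-positive and 36 GFP-negative reads, a ratio of -2.17, and ndufs4 had 6 GFP-positive and 20 GFP-negative, a ratio of -1.69. The genes uqcrc2, atp5d and cox7a2 were 0.80, 0.70 and 0.58 higher, and ndufs1 and uqcrh had ratios of -1.09 and -1.30. The most-read genes of complexes II to V, sdha, uqcrc1, cox4i1 and atp5f1, had ratios of 0.35, -0.11, 0.16 and -0.25, and ndufs3, the most-read of complex I, had 91 GFP-positive and 75 GFP-negative reads and a ratio of 0.0020. Among mitochondrial genes mt-nd2 had 153 GFP-positive and 50 GFP-negative reads, 1.31 higher, mt-cyb 341 GFP-positive and 162 GFP-negative, 0.79 higher, and mt-co1 1854 GFP-positive and 1605 GFP-negative, a ratio of -0.07.

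In the otpb pair, of the same age, the nuclear genes had 830 reads in GFP-positive and 1548 in GFP-negative cells, a ratio of 0.13 (0.01 to 0.25). Of 23 that passed, 3 were at least 2-fold higher, against 8.73% of 5427 features, and 5 at least 2-fold lower, against 22.2%. On library size alone these counts were 7 and 3. The median was then 0.42 for the nuclear genes and 0.13 over all features, and shares over all features are not given with that scaling. After TMM scaling a ratio above 0 was found for 11, against 36.3% of all features. The median with TMM scaling was -0.01 for the nuclear genes and -0.28 over all features. In this pair 1 read was 2.02 CPM in the GFP-positive and 0.73 CPM in the GFP-negative library. Genes higher in GFP-negative cells thus reached the minimum of 20 reads more easily, in the chain and over all features. With no minimum, 13 nuclear genes were at least 2-fold higher and 8 lower. The mitochondrial genes had 1537 GFP-positive and 6077 GFP-negative reads, a ratio of -0.95 (-1.03 to -0.87). The interval lay below 0 for 11 of the 13 and above 0 for none. The gene mt-co1 had 579 reads in GFP-positive and 2718 in GFP-negative cells, a ratio of -1.20. The gene ndufb10, a complex I accessory subunit, had 77 GFP-positive and 51 GFP-negative reads, 1.58 higher, and ndufs5 had 27 GFP-positive and 18 GFP-negative, 1.48 higher, opposite to its ratio in the vmat2 pair. The gene ndufv1 had 17 GFP-positive and 78 GFP-negative reads, a ratio of -1.11. The genes sdhdb and uqcrc2 were 1.14 and 0.92 higher, and atp5d and ndufaf1 had ratios of -1.54 and -1.36, with 3 reads each in GFP-positive cells. The most-read genes of complexes II to V, sdha, uqcrc1, cox4i1 and atp5a1, had ratios of -0.72, -0.71, -0.40 and -0.55. The cox4nb gene had 1 GFP-positive and 20 GFP-negative reads, a ratio of -2.26.

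The make-up of the mitochondrial reads differed between the NanoCAGE and the mRNA libraries, where assay, line and age cannot be told apart. In the vmat2 pair mt-co1 took 39.0% of them in GFP-positive and 45.5% in GFP-negative cells, mt-nd6 20.8% and 16.8%, and mt-nd5 15.9% and 17.8%. In the 8 mRNA libraries mt-nd6, the only one of the 13 encoded on the light strand, took between 1.5% and 2.7%, and mt-nd5 between 0.6% and 1.7%. The spans of mt-nd5 (MT:12897-14717, Zv9) and mt-nd6 (MT:14714-15232, Zv9) overlap at their ends and lie on opposite strands. Since the counting is not stated to use strand, their reads near the overlap cannot be told apart. The same holds for mt-atp8 (MT:8894-9058) with mt-atp6 (MT:9052-9735), and for mt-nd4l (MT:11009-11305) with mt-nd4 (MT:11299-12679), which share bases. In the vmat2 table, the one that gives unique reads, 100% of the mitochondrial and 96.2% of the nuclear reads in GFP-positive cells were unique, and 100% and 96.9% in GFP-negative cells.

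Some subunits have paired genes, and 1 member mostly held the reads. The gene sdhda had at most 26 reads in any library, against 3183 of sdhdb in the same library, and ndufs8b at most 19, against 2513 of ndufs8a. The isoform cox4i2, whose mammalian counterpart is known from lung and from low oxygen, made up 1.65% of cox4i1 and cox4i2 reads in GFP-positive and 0.921% in GFP-negative cells at 48 h, from 355 and 139 reads. At 36 h its part was 0.253% in GFP-positive and 0.395% in GFP-negative cells, from 52 reads in each. The pair of cox5a genes, for a subunit of complex IV, was more even. At 36 h cox5aa made up 48.9% of their reads in GFP-positive and 41.6% in GFP-negative cells. Its part was 38.7% and 35.8% at 48 h. COX7A2 (1 of 2) made up 11.8% of its pair in GFP-positive and 16.9% in GFP-negative cells at 36 h, and 8.32% and 15.2% at 48 h. The gene atp5ia took 39.4% of the atp5ia and atp5ib reads in GFP-positive and 30.4% in GFP-negative cells at 36 h, and 25.7% and 33.7% at 48 h. Reads of near-identical copies may have been split by the authors' counting, so these shares are uncertain. Of the nuclear genes, atp5f1, atp5g, atp5h, cox5aa, cox8a, ndufa8, ndufaf1, ndufb4, ndufb9 and sdhb also overlap another feature on Zv9.

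Genes outside the name rule that feed the chain, build it or belong to it were read from lists. The citric acid cycle, which supplies NADH and succinate, was higher in GFP-positive cells at 48 h: 6 of its 11 genes were at least 2-fold higher and 0 lower, against 17.6% and 6.53% of all features, with a median of 1.01. Citrate synthase (cs) had 4695 reads in GFP-positive and 1434 in GFP-negative cells, 1.72 higher, and idh3b, of NAD-dependent isocitrate dehydrogenase, had 1769 and 636, 1.48 higher. The gene listed as dld had 1649 GFP-positive and 3170 GFP-negative reads, a ratio of -0.93. In zebrafish the symbol dld names a Delta ligand, so it may not be the dehydrogenase subunit of the list. At 36 h only cs of the 11 genes was at least 2-fold higher, against 13.9% of all features. It had 1685 GFP-positive and 719 GFP-negative reads (1.87 higher), and the list's median was 0.10.

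Electron carriers showed the same step between ages. Cytochrome c1 (cyc1), the electron exit of complex III, is a subunit that the name rule misses, so no sum above includes it. It had 6341 reads in GFP-positive and 3992 in GFP-negative cells at 48 h, 0.68 higher. At 36 h it had 1864 and 3295, a ratio of -0.17. The electron transfer flavoprotein gene etfb had 3223 GFP-positive and 1613 GFP-negative reads at 48 h, 1.01 higher, and 700 and 1442 at 36 h, a ratio of -0.39. Assembly factors were mixed, with 1 of 12 at least 2-fold higher at 36 h, against 13.9% of all features, and 1 of 13 at 48 h, against 17.6%, shares below the background. Both times that gene was cox17, the copper chaperone of complex IV, with 1022 reads in GFP-positive and 406 in GFP-negative cells at 36 h (1.97 higher) and 2490 and 865 at 48 h (1.53 higher). The gene cox15, for an enzyme of haem a synthesis, had 104 GFP-positive and 338 GFP-negative reads at 36 h, a ratio of -1.04.

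Among regulators, ppargc1b, a coactivator of mitochondrial biogenesis, had 2130 reads in GFP-positive and 610 in GFP-negative cells at 48 h, 1.81 higher, and 548 and 865 at 36 h, a ratio of -0.01. The transcription factor gene nrf1, whose product is known to act on promoters of respiratory chain genes, had 1160 GFP-positive and 2126 GFP-negative reads at 48 h, a ratio of -0.86, and 1225 and 1587 at 36 h, 0.27. The remaining 3 regulators that passed, gabpa, yy1a and yy1b, were below 0 at 48 h (-0.49, -0.42 and -0.37), where 46.3% of all features were above 0. Of the mitochondrial transcription genes, polrmt, the RNA polymerase, had ratios of -0.44 at 48 h and 0.44 at 36 h, and tfb2m 0.65 and -0.21. The adenine nucleotide carrier slc25a5, which exports ATP from the matrix, had 132837 reads in GFP-positive and 90682 in GFP-negative cells at 48 h, 0.56 higher, and 38274 and 69362 at 36 h, a ratio of -0.21. None of the 4 genes of this exchange list that passed at 48 h was at least 2-fold higher, against 17.6% of all features. Ionocyte genes gave 50870 reads in GFP-positive and 1732 in GFP-negative cells at 48 h, and 6050 and 1118 at 36 h. Skeletal muscle genes gave 20752 and 7801 at 48 h, and 3477 and 4283 at 36 h. Heart genes gave 5257 and 415 at 48 h, and 31570 and 101 at 36 h. Ionocytes and muscle are known to be rich in mitochondria, and their part in the 48 h values was not tested.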

How the data were processed

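Per the labels' protocols, cells were sorted from dissociated fish and RNA was processed by NanoCAGE or amplified mRNA sequencing. The name of the aligner was not given in the sources used here. The sheet names place the tables on Zv9. For the vmat2 pair the authors deposited counts of exon reads per feature, per the file headers. For the other 5 tables the 174 library columns could not be tied to a sample and were not used. There, reads were worked out from comparison columns that the authors deposited, 2 score columns (a difference and a signed fold change of RPKM). All recovered values lay within 0.02 of a whole read, and in the vmat2 table all 17237 features checked equalled the deposited counts. The direction, GFP-positive minus GFP-negative, is that of the vmat2 table, and a table with the opposite convention would turn its directions. Summed catecholamine gene reads, given above, were the higher in the library taken as GFP-positive in each of those 5 tables. The genes with a read numbered 2 in GFP-positive and 0 in GFP-negative cells (otpb), 3 and 5 (36 h), 6 and 6 (48 h), 6 and 0 (72 h) and 4 and 0 (96 h).

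Reads were scaled per pair with TMM (edgeR 4.0.16, R 4.3.3). Log2 ratios of single genes carry a prior count of 2, while sums and exact Clopper-Pearson 95% intervals carry none. Intervals of mitochondrial over nuclear reads are normal approximations on the log scale. Those of medians are taken from the ranked ratios of the genes, as if the genes were independent. Genes were considered from 5 CPM and 20 reads in the larger library. The procedure was tested on simulated data. Alternatives were library size, DESeq2 1.42.0 size factors, other minimums and prior counts, leaving out the most-read gene, structural subunits only and, added after the data were seen, centring on exon length. Genes named are all mitochondrial ones, the 4 highest and 4 lowest per pair, the most-read of each complex and paired isoforms; neighbours in a family, pathway genes and others were chosen after their values were seen. 1 of the named genes is not reported here. The members and lists were chosen with earlier results of these data known. The design had classed cox4nb with complex IV by its name, and it is listed apart here.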

Additional observations from a re-analysis of the deposited data

Results flagged for a closer look

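Both 24 h lines were sorted at the same age and read with the same assay. After TMM scaling, their GFP-positive libraries departed from their GFP-negative libraries in opposite directions. The summed nuclear genes stood at -0.39 in vmat2 and 0.13 in otpb (log2, GFP-positive over GFP-negative), the mitochondrial genes at 0.15 and -0.95, and mitochondrial over nuclear reads at 0.54 and -1.08. On library size alone the nuclear sums were 0.25 and 0.57, both above 0, and the mitochondrial sums 0.78 and -0.52. Mitochondrial over nuclear reads do not depend on scaling. The medians of the nuclear genes that passed, -0.18 and -0.01 after TMM scaling, had intervals that span 0. Those intervals treat the genes as independent. The medians over all features were 0.10 and -0.28. The difference between the lines was not tested, since each has 1 library per group. How NanoCAGE reads mitochondrial RNAs was not tested either. Leukocyte genes gave 1260 reads in GFP-positive and 3 in GFP-negative vmat2 cells, against 24 and 60 in the otpb pair, and heart genes 2080 and 31, against 214 and 167. The otpb libraries differ in depth. As shares of exon reads, leukocyte genes there held 0.0048% in GFP-positive and 0.0044% in GFP-negative cells, and heart genes 0.043% and 0.012%. The part of these cell types in the difference was not tested.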

How the results depend on the processing

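Of 168 values under alternatives, 107 kept within the main value's interval or within 1.5 times the main count, and 61 moved further, 2 of them sums with an interval off 0 that changed sign. Values whose interval held 0 also crossed it, the 96 h mitochondrial sum (0.03) among them. On library size alone these were the 72 h nuclear sum (-0.11, then 0.11) and the nuclear medians of vmat2 (-0.18, then 0.44) and otpb (-0.01, then 0.42). The otpb median was also 0.14 with no minimum, 0.05 for structural subunits only and 0.24 centred on exon length, where the 72 h median was 0.04. The cause was not tested. On library size alone the nuclear sum of vmat2 became 0.25 and the mitochondrial sum of 36 h -0.29. With the same scaling the other nuclear sums became 0.57 (otpb), 0.47 (36 h), 0.81 (48 h) and 0.11 (72 h), the mitochondrial sums 0.78 (vmat2), -0.52 (otpb), 0.73 (48 h), 0.58 (72 h) and 0.13 (96 h), and the nuclear medians 0.44 (vmat2), 0.38 (36 h) and 0.78 (48 h). Counts of nuclear genes at least 2-fold higher became 6 (vmat2), 7 (otpb), 7 (36 h) and 11 (48 h), and lower 2 (vmat2), 3 (otpb), 7 (36 h) and 0 (96 h). Shares over all features are not given for these or the other alternatives. DESeq2 size factors gave nuclear sums of 1.23 (36 h), 0.66 (48 h) and 0.31 (96 h), mitochondrial sums of 0.47 (36 h), 0.59 (48 h) and 0.28 (96 h), and at 96 h 1 gene higher and 0 lower. Without the most-read gene the mitochondrial sums were 0.32 (vmat2), -0.78 (otpb), 0.35 (36 h), 0.61 (48 h) and -0.029 (96 h), the nuclear sum at 36 h 1.20, and mitochondrial over nuclear reads 0.72 (vmat2), -0.85 (36 h) and -0.057 (48 h). The stricter minimum of 10 CPM and 50 reads left 0 higher and 0 lower (vmat2), 1 and 1 (otpb), 0 and 0 (72 h) and 0 lower (96 h). With no minimum there were 3 higher and 14 lower (vmat2), 13 and 8 (otpb), 2 and 6 (72 h), 2 and 2 (96 h) and 2 lower at 36 h. Genes of few reads then enter, and the minimum no longer favours genes high in the deeper library of a pair. Centred on exon length, the 36 h median was 0.54 with 15 higher, and counts were 3 higher (vmat2), 3 lower (otpb), and 1 higher and 0 lower (96 h). A prior count of 0.5 and structural subunits only moved no value beyond the main value's interval or 1.5 times the main count. No paired analysis over replicates was possible because the groups compared have 1 library each. A fit pooling the 6 pairs, which differ in line, age and assay, was not run. In the th:GFP libraries 1 read is worth between 12.6 and 18.9 CPM, which limits what can be seen of nuclear genes there.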
